A study of Mus musculus with 6 samples.

Results

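The genes described here are 9 well-known TGF-beta induced genes, taken by symbol from a table of 23827 genes: the matrix genes Tgfbi, Fn1, Ctgf, Cyr61 and Thbs1, and the feedback genes Pmepa1, Skil, Smad7 and Tgif1. Ctgf and Cyr61 are now named Ccn2 and Ccn1. TGF-beta is a secreted growth factor that binds a pair of receptor kinases, and the SMAD2 and SMAD3 proteins that these phosphorylate enter the nucleus with SMAD4 and switch on target genes. Many of those targets encode proteins of the extracellular matrix, and others encode inhibitors that damp the pathway again. In developing brain vessels TGF-beta signalling is known for its part in vessel stability and in exchange between endothelial cells and the pericytes around them.

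RNA was taken from brain endothelial cells of mouse embryos at E14.5 (embryonic day) by translating ribosome affinity purification (TRAP), which recovers the RNA on tagged ribosomes of a chosen cell type. The Axin1 overexpression group held 3 libraries from embryos whose R26 locus carried Axin1 followed by IresLacZ. Axin1 holds together the proteins that lead to the breakdown of beta-catenin, the effector of canonical Wnt signalling. The wild-type group held 3 libraries. Both groups came from mice of the mixed strain C57BL/6 x 129/Sv, and in both the mother was given tamoxifen at E12.5. The sources used here do not give the driver of recombination, the promoter of the ribosome tag or whether animals were pooled. The labels call the libraries of a group biological replicates.

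Levels are RPKM, reads scaled by transcript length and by library depth, which allows levels of different genes to be compared. Recovered reads numbered 21076922 to 37040176 per library with Axin1 overexpression and 53524184 to 62507510 in wild type. Axin1 itself stood at 37.8, 38.1 and 37.4 RPKM in the Axin1 overexpression libraries, against 13.6, 14.4 and 15.1 RPKM in the wild-type libraries. The endothelial markers examined were all read in every library, with a summed level of 3181 to 3403 RPKM with Axin1 overexpression and 3618 to 3781 RPKM in wild type. Of these 12 markers, 1 was higher and 3 were lower by limma; the most abundant were Cldn5, a tight junction protein, at 748 ± 61.3 RPKM with Axin1 overexpression and 1263 ± 104 RPKM in wild type, and Egfl7 at 457 ± 19.8 RPKM with Axin1 overexpression and 394 ± 39.6 RPKM in wild type (SD, n = 3 each). The mean fall of Cldn5 was larger than that of the summed level, so the sum does not show the other endothelial markers to be lower. Erythroid markers were higher in 5 of 6 tested and lower in 1, against 14.4% higher and 8.37% lower among all genes tested. Hbb-bh1, counted as higher and named after its values were seen, averaged 4.02 RPKM with Axin1 overexpression and 0.566 RPKM in wild type. It met the filter for testing, a mean of at least 1 RPKM over all libraries, through the Axin1 overexpression libraries alone, so its call supports nothing. The column headers carry a tag that is the same within a group and differs between the groups, so a batch that it might mark cannot be told apart from the genotype.

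The promoter sequences of Tgfbi and Cyr61 are shown as a description. These genes were picked after their changes and motif matches were seen. Whether such matches go with the size of a change was not tested. The set of promoter sequences used here (build GRCm38.p6) held 3 of the 9 genes, Tgfbi, Cyr61 and Tgif1. The stretches are the 250 bases before the start, written 5′ to 3′ on the gene's own strand, at chr13:56609336-56609585 (plus strand) for Tgfbi and chr3:145649986-145650235 (minus strand) for Cyr61. Capitals mark matches to the motifs named below.
Tgfbi: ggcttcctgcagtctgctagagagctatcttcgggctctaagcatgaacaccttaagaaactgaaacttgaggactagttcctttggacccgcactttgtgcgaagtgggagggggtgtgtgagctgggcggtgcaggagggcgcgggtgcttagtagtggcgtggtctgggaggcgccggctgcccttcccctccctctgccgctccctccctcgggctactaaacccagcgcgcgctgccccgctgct
Cyr61: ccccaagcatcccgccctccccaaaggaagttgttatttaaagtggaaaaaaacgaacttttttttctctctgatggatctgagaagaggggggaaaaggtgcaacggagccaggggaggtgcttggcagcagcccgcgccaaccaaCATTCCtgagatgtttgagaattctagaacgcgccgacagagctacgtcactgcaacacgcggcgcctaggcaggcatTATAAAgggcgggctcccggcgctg

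Both strands were searched for 6 motifs: the SMAD element CAGACA and the SMAD palindrome GTCTAGAC, the TEAD element CATTCC, the AP-1 element TGANTCA, the TCF/LEF element CTTTGAT and the TATA element TATAAA. None of these letter runs overlap each other in the stretches shown. Cyr61 held CATTCC at positions -103 to -98 and TATAAA at -25 to -20, counted back from -1 just before the start. TEAD proteins carry YAP and TAZ to DNA, and Cyr61 is a standard target gene of that pair. Of 32536 distinct promoter stretches of this length, 12.6% held CATTCC and 12.3% TATAAA. Tgfbi held none of the 6 runs. Tgif1 has 5 starts in the promoter set, and CAGACA or its reverse complement lay before 2 of them, against 17.0% of all promoter stretches. ATCAAAG, the reverse complement of the TCF/LEF element, lay at -151 to -145 before another of its starts, against 3.2% of all promoter stretches. The bases after that start did not match the beginning of a reference transcript of the gene, while those after its other starts did. These shares are per stretch. As 5 stretches of Tgif1 were searched, a match in any of them is likelier than the share says. A match describes the letters and is not shown to be a bound site.

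With Axin1 overexpression, 3 of the 9 genes rose (Tgfbi, Cyr61 and Ctgf), 2 fell (Fn1 and Pmepa1) and 4 did not pass the test (Thbs1, Skil, Smad7 and Tgif1). The test was limma on log2(RPKM + 1), with p adjusted over the 12493 genes whose mean was at least 1 RPKM, and all 9 genes met that filter. In that comparison 22.8% of all genes tested were called, 14.4% as higher and 8.37% as lower, while 55.6% of the 9 were called. The median log2 fold change of the 9 was 0.06, against 0.04 for all genes tested, and the median size without regard to sign was 0.28 against 0.14. The 1800 higher and 1046 lower calls over all genes became 1248 and 1392 after scaling by the median of ratios, while 5 of the 9 were called there too. The genes thus did not move as a block: the matrix genes spread between log2 fold changes of -0.75 and 1.28 and the feedback genes between -0.44 and 0.15. Without Axin1 overexpression replicate 2, 1 of the 9 was called (Tgfbi), and without wild-type replicate 1 the number was 3.

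**Figure D1:**
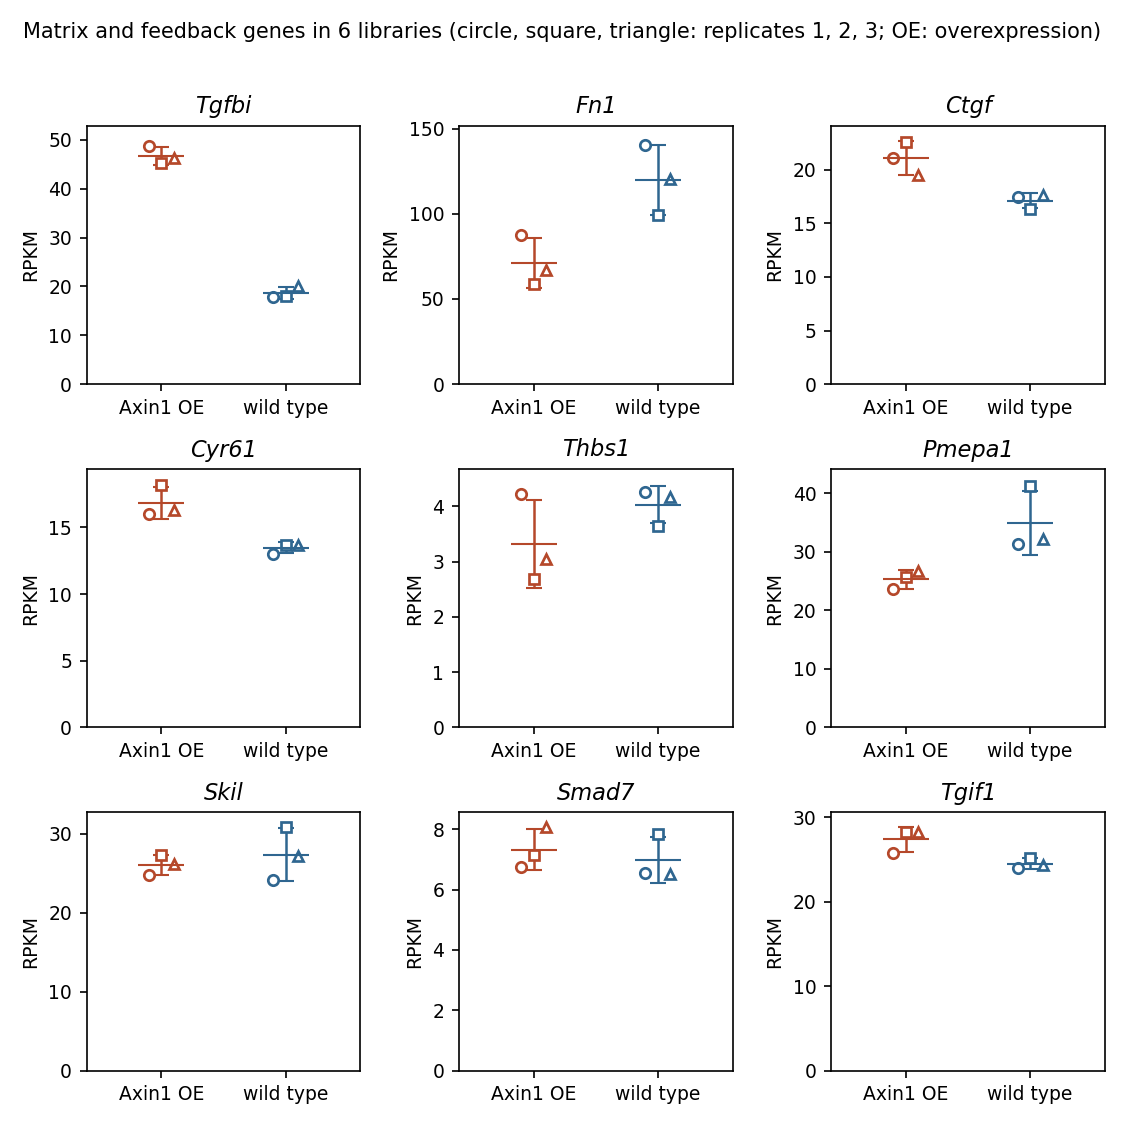
Level of each of the 9 genes in RPKM (vertical axes, each from 0) in the 3 Axin1 overexpression and 3 wild-type libraries. Points are libraries, horizontal bars group means and error bars SD. Tgfbi sits between 45.3 and 48.8 RPKM with Axin1 overexpression and between 17.9 and 20.1 RPKM in wild type, while Fn1 is lower in every Axin1 overexpression library than in any wild-type library.

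The strongest change among the 9 was that of Tgfbi, which encodes a secreted matrix protein with fasciclin domains that binds integrins and collagens and was first found as a gene induced by TGF-beta. Its level was 48.8, 45.3 and 46.2 RPKM in Axin1 overexpression replicates 1 to 3, against 17.9, 18.0 and 20.1 RPKM in wild-type replicates 1 to 3. Each Axin1 overexpression library lay far above each wild-type library, and the spread within a group was small, with a coefficient of variation of 3.9% with Axin1 overexpression and 6.67% in wild type. The means were 46.8 ± 1.82 RPKM with Axin1 overexpression and 18.7 ± 1.25 RPKM in wild type (SD, n = 3 each), a ratio of 2.51. The log2 fold change was 1.28 (SE 0.07, 95% interval 1.13 to 1.44, limma adjusted p = 3.65e-05), which lay above that of 99.8% of all genes tested. It passed under all 16 alternatives, with log2 fold changes of 0.99 (pseudocount of 10) to 1.34 and adjusted p of 3.52e-06 to 0.00104. Behind these values stood 2612 to 4762 reads with Axin1 overexpression and 2575 to 3093 in wild type.

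Tgfbi is also read in macrophages, and markers of macrophages and microglia were examined beside it. Of 12 such markers tested, 2 (Aif1 and Lyz2) were higher and 0 lower by limma (0 lower at an unadjusted p under 0.05 and 0 by voom). Among all genes tested 14.4% were called higher, a share near that of these markers, and 8.37% lower. Their summed level was 84.7, 49.4 and 58.2 RPKM in Axin1 overexpression replicates 1 to 3, against 49.1, 50.9 and 48.5 RPKM in wild-type replicates 1 to 3. The median log2 fold change of the markers tested was 0.27, against 0.04 for all genes tested. At an unadjusted p under 0.05, 3 of the markers were higher by limma. The most abundant of these markers was Tyrobp, an adaptor of myeloid receptors, at 10.7 ± 3.03 RPKM with Axin1 overexpression and 7.93 ± 0.203 RPKM in wild type (SD, n = 3 each), and the next by the mean over all libraries was Fcer1g at 8.37 ± 2.41 RPKM with Axin1 overexpression and 6.66 ± 0.834 RPKM in wild type. No marker of the list was at 0 in all libraries, and their part in the rise of Tgfbi was not tested.

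Fn1 fell. It encodes fibronectin, a fibril-forming glycoprotein of the matrix around growing vessels that cells grip through integrins. It was the most abundant of the 9 genes in both groups. Its level was 87.3, 58.6 and 67.0 RPKM in Axin1 overexpression replicates 1 to 3, against 140.1, 99.4 and 120.1 RPKM in wild-type replicates 1 to 3. The groups did not overlap, yet the libraries within each group differed widely, by a coefficient of variation of 20.8% with Axin1 overexpression and 17.0% in wild type. The means were 71.0 ± 14.7 RPKM with Axin1 overexpression and 119.9 ± 20.4 RPKM in wild type (SD, n = 3 each). The log2 fold change was -0.75 (SE 0.16, 95% interval -1.12 to -0.39, limma adjusted p = 0.0139). Without Axin1 overexpression replicate 2 it was -0.63 and did not pass (limma adjusted p = 0.0519), and with no filter on low genes it did not pass either (adjusted p = 0.0544). Over all 16 alternatives the value ran from -0.91 to -0.63 and the adjusted p from 0.000959 to 0.0544.

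Mesenchymal cells also make fibronectin, and their markers were examined beside it. Of 9 pericyte and smooth muscle markers tested, 4 were lower and 0 higher by limma (0 higher at an unadjusted p under 0.05 and 0 by voom), with summed levels of 45.1, 33.7 and 31.9 RPKM in Axin1 overexpression replicates 1 to 3 and 49.8, 44.5 and 52.4 RPKM in wild-type replicates 1 to 3. Of 12 meningeal fibroblast markers, 3 were lower and 0 higher by limma (again 0 higher unadjusted and 0 by voom), with sums of 228, 228 and 227 RPKM in Axin1 overexpression replicates 1 to 3 and 329, 217 and 246 RPKM in wild-type replicates 1 to 3. The sums of both lists overlapped between the groups. In wild type the meningeal sums ranked the replicates as Fn1 did, while over the Axin1 overexpression libraries they were flat and Fn1 was not. Both the flat course and the overlap of the meningeal sums depended on Col3a1, the most abundant of these markers. Col3a1 stood at 63.0, 85.6 and 91.0 RPKM in Axin1 overexpression replicates 1 to 3. Dcn, the next most abundant, was highest in replicate 1 there, as Fn1 was, at 41.8, 31.3 and 29.6 RPKM. The pericyte sum was highest in replicate 1 with Axin1 overexpression, as Fn1 was. In wild type it was highest in replicate 3, while Fn1 was highest in replicate 1. Of all genes tested, 8.37% were called lower and 14.4% higher. The median log2 fold change was -0.25 for the pericyte list and -0.32 for the meningeal list, against 0.04 for all genes tested. No marker of either list was at 0 in all libraries, and their part in the fall of Fn1 was not tested. Each library pools the RNA of many cells, so fewer cells of a type in the pull-down and less RNA per cell cannot be told apart. The most abundant markers were Notch3 (11.3 ± 3.07 RPKM with Axin1 overexpression, 15.2 ± 2.8 RPKM in wild type) and Cspg4 (6.07 ± 2.88 RPKM with Axin1 overexpression and 10.2 ± 0.942 RPKM in wild type) for pericytes. For meningeal fibroblasts they were Col3a1 (79.9 ± 14.8 RPKM with Axin1 overexpression and 71.9 ± 23.6 RPKM in wild type) and Dcn (34.2 ± 6.6 RPKM with Axin1 overexpression and 42.4 ± 8.01 RPKM in wild type; SD, n = 3 each).

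Since Tgfbi rose and Fn1 fell, the makeup of the transcripts of the 5 matrix genes shifted, which says nothing of other matrix genes. Per kilobase, Fn1 stood at 1.79, 1.29 and 1.45 times the level of Tgfbi in Axin1 overexpression replicates 1 to 3, against 7.84, 5.51 and 5.97 times in wild-type replicates 1 to 3. Fn1 made up 39.8% to 49.2% of the summed RPKM of the 5 matrix genes with Axin1 overexpression and 65.7% to 72.7% in wild type. The sum itself overlapped between the groups, at 147 to 177 RPKM with Axin1 overexpression and 151 to 193 RPKM in wild type. These ratios follow from the values already given and were not tested.

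**Figure D2:**
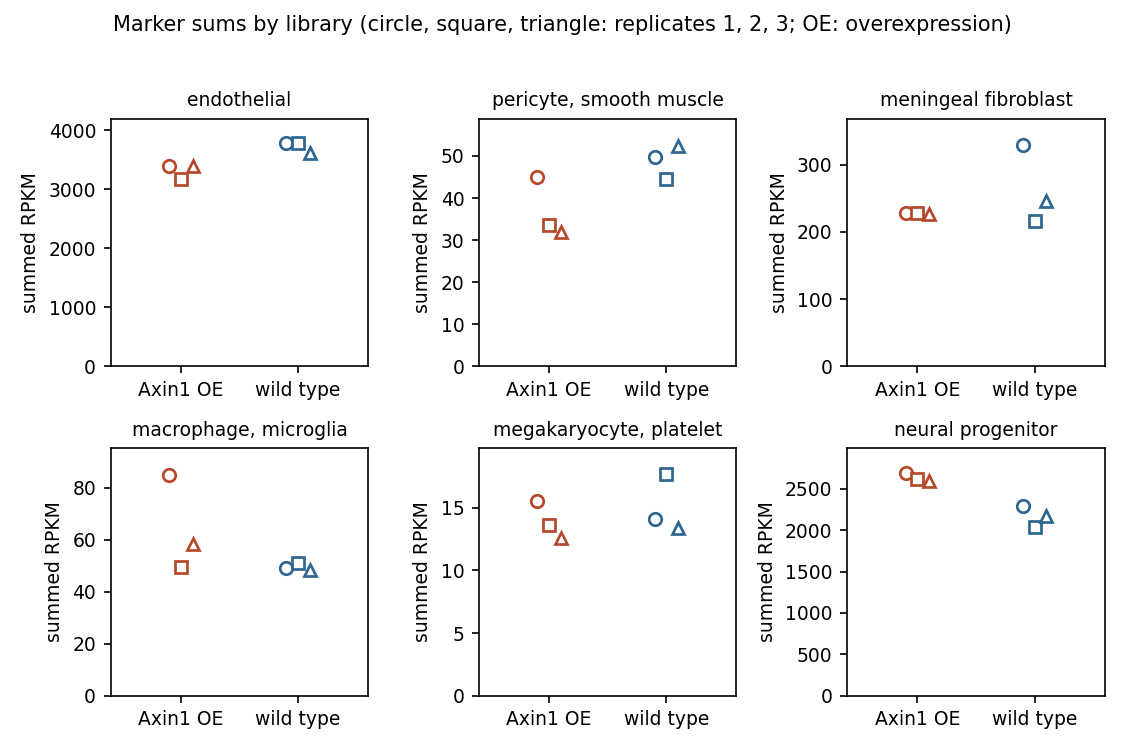
Summed RPKM (vertical axes, each from 0) of the markers of 6 cell types in each of the 3 Axin1 overexpression and 3 wild-type libraries; points are libraries. Neural progenitor sums are higher and pan-endothelial sums lower in every Axin1 overexpression library, and the macrophage sum of 84.7 RPKM in Axin1 overexpression replicate 1 stands above the other 5 libraries. Vim and Nes make up most of the neural progenitor sums. The mean fall of Cldn5 alone is larger than that of the pan-endothelial sums, so these do not show the other endothelial markers to be lower.

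Ctgf and Cyr61 rose by small and similar amounts. Both encode CCN proteins, secreted matricellular proteins that bind integrins and heparan sulphate and are induced by TGF-beta and by YAP and TAZ. Ctgf stood at 21.1, 22.6 and 19.5 RPKM in Axin1 overexpression replicates 1 to 3, against 17.4, 16.3 and 17.6 RPKM in wild-type replicates 1 to 3. Cyr61 stood at 16.0, 18.2 and 16.3 RPKM in the Axin1 overexpression libraries and at 13.0, 13.7 and 13.7 RPKM in the wild-type libraries. For both genes the lowest Axin1 overexpression library lay above the highest wild-type library, and replicate 2 was the highest of its group with Axin1 overexpression. The log2 fold change of Ctgf was 0.28 (SE 0.07, 95% interval 0.12 to 0.44, limma adjusted p = 0.0233). That of Cyr61 was 0.30 (SE 0.07, 95% interval 0.14 to 0.45, limma adjusted p = 0.0184).

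Neither call held under all alternatives. Without Axin1 overexpression replicate 2 both were lost, with log2 fold changes of 0.24 for each and limma adjusted p of 0.0982 for Ctgf and 0.0777 for Cyr61. Without wild-type replicate 1 they were lost as well (0.29 with limma adjusted p = 0.0511 for Ctgf and 0.27 with 0.0544 for Cyr61). The Ctgf call was also lost without Axin1 overexpression replicate 1 (limma adjusted p = 0.0558), without wild-type replicate 2 (0.0524), after scaling to a shared upper quartile (0.0511) and after correction for GC content and length (0.0638). Over the 16 alternatives the adjusted p ran from 0.0129 to 0.0982 for Ctgf and from 0.0127 to 0.0777 for Cyr61. In the authors' deposited table neither gene had an adjusted p under 0.05. Of 14 neural progenitor markers, 6 were higher, 0 lower and 8 did not pass by limma (1 lower at an unadjusted p under 0.05 and 0 by voom), against 14.4% higher among all genes tested. Their median log2 fold change was 0.19, with values down to -0.22 among those that did not pass, and their sums were 2598 to 2686 RPKM with Axin1 overexpression and 2038 to 2295 RPKM in wild type. The most abundant were Vim, at 1469 ± 12.6 RPKM with Axin1 overexpression and 1167 ± 17.9 RPKM in wild type, and Nes, at 431 ± 50.3 RPKM with Axin1 overexpression and 373 ± 32.5 RPKM in wild type (SD, n = 3 each). Vim and Nes made up most of these sums, and whether the endothelial cells themselves carried them was not tested. Some other genes of the list mark neurons rather than progenitors. No marker of that list was at 0 in all libraries, and its part in the small rises was not tested.

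Thbs1 encodes thrombospondin-1, a matricellular protein that restrains angiogenesis through the receptor CD36 and can release active TGF-beta from its latent complex. It was the least abundant of the 9 genes, at 4.22, 2.69 and 3.05 RPKM in Axin1 overexpression replicates 1 to 3 and 4.27, 3.65 and 4.17 RPKM in wild-type replicates 1 to 3. The groups overlapped through Axin1 overexpression replicate 1, which lay between the wild-type libraries. The log2 fold change was -0.23 (SE 0.12, 95% interval -0.51 to 0.04, limma adjusted p = 0.191). Without that replicate it was -0.38 and passed (limma adjusted p = 0.0282, against up to 0.507 over its 15 alternatives). With 373 to 892 reads with Axin1 overexpression and 1127 to 1538 in wild type it also had the fewest reads of the matrix genes. Platelet precursors also carry Thbs1. Of 9 markers of megakaryocytes and platelets, 3 were tested and 1 was lower (Gp1bb, at 3.34 ± 0.103 RPKM with Axin1 overexpression and 4.73 ± 0.986 RPKM in wild type), while the most abundant, Pf4, was at 8.32 ± 1.15 RPKM with Axin1 overexpression and 7.81 ± 0.729 RPKM in wild type (SD, n = 3 each). Among all genes tested, 8.37% were called lower. The sums of the megakaryocyte and platelet markers overlapped, at 12.6 to 15.5 RPKM with Axin1 overexpression and 13.4 to 17.7 RPKM in wild type.

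Of the 4 feedback genes, 1 fell and 0 rose by limma (1, Tgif1, was higher at an unadjusted p under 0.05, and 0 by voom). Pmepa1 encodes a membrane protein that binds SMAD2 and SMAD3 and keeps them from the receptor. It stood at 23.6, 25.7 and 26.8 RPKM in Axin1 overexpression replicates 1 to 3, against 31.4, 41.2 and 32.2 RPKM in wild-type replicates 1 to 3. The groups did not overlap, and wild-type replicate 2 stood well above the other libraries. The means were 25.4 ± 1.65 RPKM with Axin1 overexpression and 34.9 ± 5.44 RPKM in wild type (SD, n = 3 each), with a log2 fold change of -0.44 (SE 0.11, 95% interval -0.68 to -0.20, limma adjusted p = 0.0214). Without wild-type replicate 2 the change was -0.32 and still passed (limma adjusted p = 0.0257). The call was lost without Axin1 overexpression replicate 1 (-0.39, limma adjusted p = 0.0668) or replicate 2 (-0.45, 0.0664), with no filter on low genes (0.0621) and after correction for GC content and length (-0.35, 0.0584). Over the 16 alternatives the adjusted p ran from 0.015 to 0.0668. The part of the pericyte and meningeal markers given beside Fn1, of which 4 of 9 and 3 of 12 were lower, in the fall of Pmepa1 was not tested.

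The other feedback genes did not pass. Smad7 encodes the inhibitory SMAD that sits on the activated receptor and recruits the ubiquitin ligases of the Smurf genes. It stood at 6.75, 7.15 and 8.06 RPKM in the Axin1 overexpression libraries and 6.56, 7.85 and 6.50 RPKM in the wild-type libraries, so that the groups were interleaved. Its log2 fold change was 0.06 (95% interval -0.14 to 0.26, limma adjusted p = 0.634), and without Axin1 overexpression replicate 3 it was -0.000425. Skil encodes SnoN, which binds SMAD complexes on DNA and represses their targets. It stood at 24.8, 27.3 and 26.1 RPKM in the Axin1 overexpression libraries and 24.1, 30.8 and 27.1 RPKM in the wild-type libraries, all 3 Axin1 overexpression values lying inside the wild-type range. Its log2 fold change was -0.06 (95% interval -0.26 to 0.15, limma adjusted p = 0.66), or 0.03 without wild-type replicate 2. The intervals leave room for a rise of Smad7 of up to 0.26, and for a Skil value as low as -0.26, on the log2 scale.

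Tgif1 encodes a homeodomain repressor that joins SMAD2 and SMAD3 on DNA. It stood at 25.7, 28.2 and 28.3 RPKM in the Axin1 overexpression libraries, against 24.0, 25.2 and 24.3 RPKM in the wild-type libraries. The groups did not overlap, but the log2 fold change of 0.15 (SE 0.06, 95% interval 0.01 to 0.30) did not pass after adjustment (limma adjusted p = 0.111), and with the correction for GC content and length it was 0.02. Counting 6 of the 9 genes without overlap between the groups (4 higher, 2 lower) is to be read against 43.9% of all genes tested, 28.0% higher and 15.9% lower. The values of Tgif1 and Skil come from genes with several transcripts, for which the deposited RPKM does not go back to whole reads. A pseudogene of Tgif1 is annotated in the mouse, so reads of Tgif1 could have been shared with it.

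**Figure D3:**
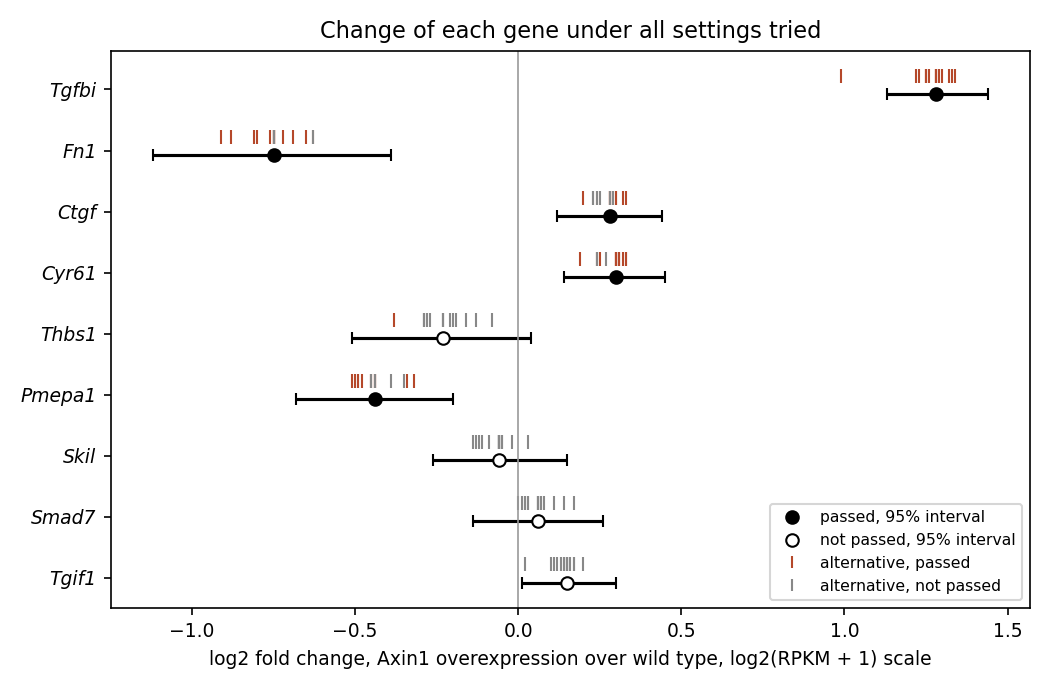
Log2 fold change of each of the 9 genes, Axin1 overexpression over wild type, on the log2(RPKM + 1) scale (horizontal axis). Circles with bars are the values with their 95% intervals from limma, filled where the adjusted p was under 0.05, and ticks above them are the 16 alternatives (15 for Thbs1). Tgfbi lies at 1.28 with its ticks between 0.99 and 1.34, Fn1 at -0.75, Ctgf and Cyr61 near 0.3, and the ticks of Skil and Smad7 reach or cross 0.

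The order of the levels changed with the genotype. With Axin1 overexpression the mean levels ran, from high to low, Fn1, Tgfbi, Tgif1, Skil, Pmepa1, Ctgf, Cyr61, Smad7 and Thbs1. The libraries of Tgif1, Skil and Pmepa1 overlapped there, so that these neighbours did not differ beyond their spread. In wild type the order was Fn1, Pmepa1, Skil, Tgif1, Tgfbi, Ctgf, Cyr61, Smad7 and Thbs1, and of the neighbours Skil and Tgif1 overlapped. Tgfbi held rank 2 with Axin1 overexpression and rank 5 in wild type, while Pmepa1 held rank 5 with Axin1 overexpression and rank 2 in wild type. Among all genes tested, Tgfbi lay above 85.5% with Axin1 overexpression and above 63.4% in wild type, and Fn1 above 91.5% with Axin1 overexpression and 96.4% in wild type.

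In the authors' deposited table, whose fold is given as wild type over Axin1 overexpression, 3 of the 9 genes had an adjusted p under 0.05, against 8.88% of its 18917 genes with a p. They were Tgfbi (authors' fold 0.412, adjusted p = 1.5e-34), Fn1 (1.74, 0.0149) and Pmepa1 (1.42, 0.028). In that table Ctgf had an authors' fold of 0.838 (adjusted p = 0.0714) and Cyr61 of 0.828 (0.077). The authors' deposited table gave Smad7 an authors' fold of 0.984 and Tgif1 of 0.916.

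Genes with a like pattern were sought by the distance between profiles over the 6 libraries, each profile being log2(RPKM + 1) less its own wild-type mean, so that 0 is an identical course. The gene nearest to Tgfbi was Axin1 itself (distance 0.138), followed by Upp1, a uridine phosphorylase (0.245), and Ramp3, a partner of the adrenomedullin receptor (0.255). Upp1 stood at 14.9 ± 0.305 RPKM with Axin1 overexpression and 6.0 ± 0.424 RPKM in wild type, and Ramp3 at 9.2 ± 0.858 RPKM with Axin1 overexpression and 3.22 ± 0.283 RPKM in wild type (SD, n = 3 each). Nearest to Fn1 were Lama2, a laminin chain (0.142), Flnc, a filamin (0.201), and Megf6 (0.227). Nearest to Pmepa1 were Mgat4a (0.139), Spsb1 (0.14) and Gm13375 (0.155). Nearest to Ctgf were Hmgb3 (0.0336), Dnaaf2 (0.0644) and Ssbp1 (0.0688), and nearest to Cyr61 were Nap1l1 (0.0476), Nek6 (0.0586) and Nutf2 (0.0609). For the genes that did not pass, the nearest were Lamc1, Cntn1 and Cdh2 for Thbs1 (0.0762 to 0.112), Lrrc28, Kcnn3 and Ccny for Skil (0.037 to 0.0611), Scn3a, Rfwd2 and Phf19 for Smad7 (0.0704 to 0.0809) and Bmi1, Coprs and Ralb for Tgif1 (0.031 to 0.0388). Among the 9 genes themselves the closest pair was Ctgf and Cyr61 (0.151) and the farthest Tgfbi and Fn1 (3.56).

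Of 14 relatives, 10 were tested, 0 were higher and 2 lower by limma, against 14.4% and 8.37% of all genes tested. Their median log2 fold change was -0.15, against 0.04 for all genes tested. At an unadjusted p under 0.05, 0 were higher and 5 lower, and by voom 0 and 2. The number called was 1 without Axin1 overexpression replicate 2 or 3 or wild-type replicate 1 or 3, and 4 without wild-type replicate 2. The lower ones were matrix glycoproteins: Tnc, tenascin-C, stood at 10.3, 6.28 and 10.6 RPKM with Axin1 overexpression and 16.4, 16.4 and 16.0 RPKM in wild type (log2 fold change -0.81, limma adjusted p = 0.0106). Vtn, vitronectin, stood at 25.0 ± 2.48 RPKM with Axin1 overexpression and 33.4 ± 4.02 RPKM in wild type (SD, n = 3 each; log2 fold change -0.40, limma adjusted p = 0.0254). Postn, the closest relative of Tgfbi, stood at 2.28 ± 0.228 RPKM with Axin1 overexpression and 3.19 ± 0.73 RPKM in wild type and did not pass (log2 fold change -0.34, 95% interval -0.62 to -0.05, limma adjusted p = 0.082). A rise such as that of Tgfbi was thus not seen in Postn, though the difference between the 2 genes was not tested.

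The counterparts of the feedback genes did not pass. Ski, the relative of Skil, was the more abundant of that pair, at 64.8 ± 1.43 RPKM with Axin1 overexpression and 71.6 ± 3.1 RPKM in wild type (log2 fold change -0.14, limma adjusted p = 0.12). Smad6, the other inhibitory SMAD, stood at 11.3 ± 1.14 RPKM with Axin1 overexpression and 9.92 ± 0.589 RPKM in wild type (0.17, adjusted p = 0.148). Tgif2 stood at 16.0 ± 0.521 RPKM with Axin1 overexpression and 14.2 ± 1.52 RPKM in wild type (0.17, adjusted p = 0.162, SD with n = 3 each), and Ldlrad4, the relative of Pmepa1, had a log2 fold change of -0.02 (limma adjusted p = 0.844). Of the CCN relatives, Nov had a log2 fold change of -0.16 and Wisp1 of -0.20 without passing, and Wisp2 lay below the filter. Of the thrombospondins, Thbs3 did not pass (-0.06), and Thbs2, Thbs4 and Comp lay below the filter.

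Upstream of the 9 genes, 5 of 17 ligand, receptor and SMAD genes were lower and 0 higher by limma (1 higher at an unadjusted p under 0.05 and 0 by voom). Of all genes tested, 8.37% were lower and 14.4% higher. After correction for GC content and length 3 of the list were lower and 1 higher, and with a pseudocount of 10, 7 and 1. The median log2 fold change of the list was -0.17. Tgfbr3, the co-receptor betaglycan, had a log2 fold change of -0.62 (limma adjusted p = 0.00307) and Tgfbr2, the receptor that binds the ligand first, one of -0.32 (0.00841). The latent complex gene Ltbp4 followed with -0.62 (limma adjusted p = 0.02) and Smad3 with -0.36 (0.0222). Smad3 stood at 24.1, 25.4 and 27.0 RPKM with Axin1 overexpression and 29.2, 36.1 and 34.1 RPKM in wild type, with no overlap. The other lower gene, the ligand gene Tgfb2, stood at 6.82 ± 1.02 RPKM with Axin1 overexpression and 9.1 ± 0.319 RPKM in wild type (SD, n = 3 each; log2 fold change -0.38, limma adjusted p = 0.0224). The number called in this list was 2 without Axin1 overexpression replicate 2 or wild-type replicate 3, and 3 without Axin1 overexpression replicate 1. The part of those pericyte and meningeal markers in these falls, and in those of Tnc and Vtn, was not tested.

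Other genes that TGF-beta is known to induce went both ways, as the 9 did. Limma called 4 higher and 6 lower among 22 tested, against 14.4% and 8.37% of all genes tested. The median log2 fold change of the 22 was -0.19. At an unadjusted p under 0.05, 4 were higher and 9 lower, and by voom 4 and 8. Of the 6 lower genes, Acta2 is also among the pericyte markers and Col1a2 among the meningeal markers given beside Fn1, and the part of those cells was not tested. The higher ones were led by Timp3, an inhibitor of metalloproteases (0.62, limma adjusted p = 0.00113), and Igfbp3, a binding protein of insulin-like growth factors (0.60, 0.00137). The lower ones were led by Serpine2, a protease inhibitor (-1.11, limma adjusted p = 0.00404), and Cdkn2b, an inhibitor of cyclin-dependent kinases (-0.82, 0.00441). Serpine2 stood at 31.1, 24.5 and 26.8 RPKM with Axin1 overexpression and 46.6, 59.9 and 78.1 RPKM in wild type, a wide spread among the wild-type libraries. Another lower gene, Adamtsl2 (-0.57, limma adjusted p = 0.0089), is named in the title of the study, which may have picked it on these libraries, so it is no independent evidence of the list's direction.

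The small rises of Ctgf and Cyr61 were set beside other target genes of YAP and TAZ. Of 10 tested of that list, 0 were higher and 2 lower by limma (Arhgef17 with a log2 fold change of -0.46 and limma adjusted p of 0.0166, and Tgfb2). Of all genes tested, 14.4% were higher and 8.37% lower. The median log2 fold change of the list was 0.02. At an unadjusted p under 0.05 and by voom the counts were again 0 higher and 2 lower. After correction for GC content and length they were 1 higher and 1 lower. Amotl2 and Lats2, common readouts of the pair, had log2 fold changes of 0.08 and -0.09 and did not pass. They are named here after their values were seen. The number called in this list was 0 without Axin1 overexpression replicate 2, and 1 without Axin1 overexpression replicate 1 or 3 or wild-type replicate 2 or 3.

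Of the receptors for these matrix proteins, 10 were tested, 2 were higher and 2 lower, against 14.4% and 8.37% of all genes tested. Without Axin1 overexpression replicate 1, 9 were tested, 0 were higher and 3 lower. Cd36, counted as higher, the receptor of thrombospondin-1, stood at 1.79, 1.75 and 1.53 RPKM with Axin1 overexpression and 0.624, 0.44 and 0.531 RPKM in wild type, a level low in both groups. Its mean over all libraries met the filter of 1 RPKM through the Axin1 overexpression libraries alone, so its values are a description and its call supports nothing. Itga6, an integrin chain that binds laminins and CCN proteins, had a log2 fold change of 0.64 (limma adjusted p = 0.0233). Itga4, a chain of a fibronectin-binding integrin, had one of -0.60 (0.00209), and Lrp1, an endocytic receptor that takes up CCN proteins and thrombospondin-1, one of -0.49 (0.0317). Itga5 and Itgb1, which form the main fibronectin receptor and are named after their values were seen, had log2 fold changes of 0.06 and 0.16 and did not pass. The number called was 2 without Axin1 overexpression replicate 2 or 3 or wild-type replicate 2.

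**Figure D4:**
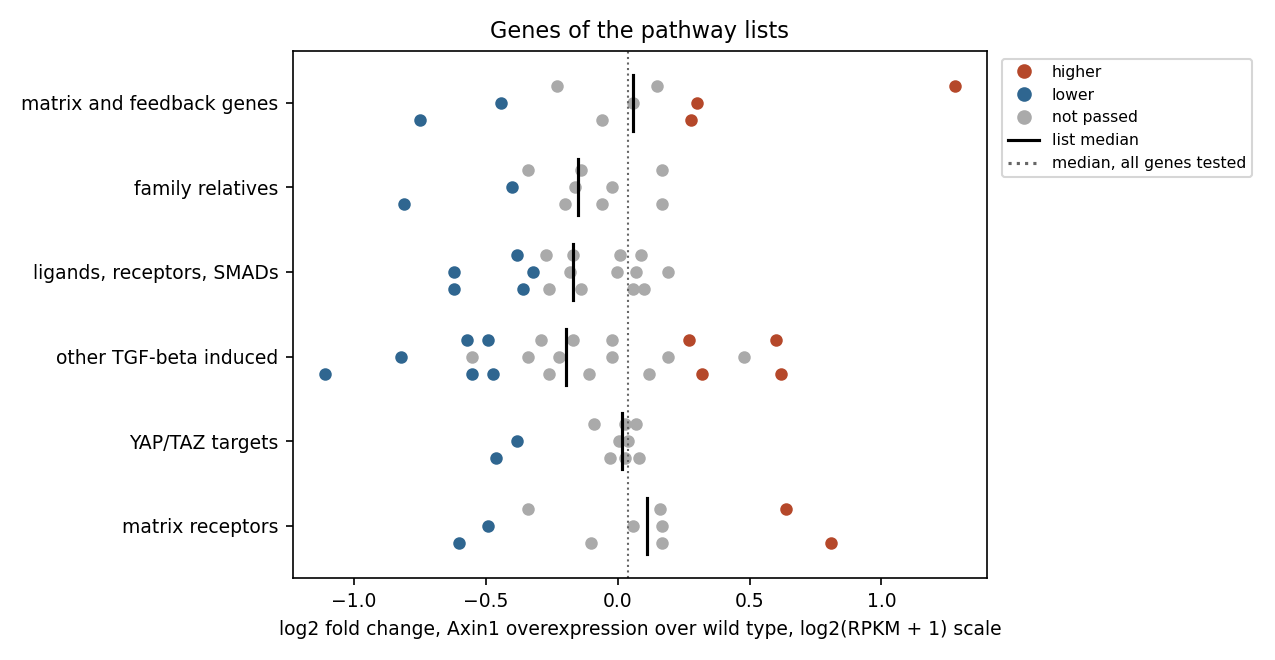
Log2 fold change of each tested gene, Axin1 overexpression over wild type, on the log2(RPKM + 1) scale (horizontal axis), in the 6 lists (rows); vertical offsets only separate the points. Black bars are list medians (0.06 for the 9 genes, -0.15, -0.17 and -0.19 for the next 3 rows) and the dotted line is the median of 0.04 over all genes tested. Tgfbi at 1.28 stands apart to the right.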

How the data were processed

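The data are a single table of 23827 genes by symbol and RefSeq transcript. Per the submitters' processing notes, Bowtie, DESeq and build mm9 were used, and the sources used here do not name the read counter. The authors deposited RPKM for every gene in every library; the headers name no unit, and this one was settled from the values. Per the file headers the authors deposited DESeq group means (a normalized count signal), their fold, and raw and adjusted p-values. The fold equalled mean B over mean A in all 17756 genes with both, and A held the mean in all 365 genes read in Axin1 overexpression libraries alone, so the authors' fold runs wild type over Axin1 overexpression. Combining RPKM with these means gave back reads, whole within 0.05 reads for 100.0% of values of genes with 1 transcript, 24.0% with several and 83.6% of all. At a length of 1 kb, a count of 0 allows up to 3 reads, or 0.082 to 0.143 RPKM with Axin1 overexpression and 0.049 to 0.057 RPKM in wild type, for counting error only. No replicate pair agreed within sampling noise (chi-square per degree of freedom 7.6 to 45.6).

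Genes averaging 1 RPKM or more (12493) were compared by limma 3.58.1 (R 4.3.3) after adding a pseudocount of 1 and taking log2, the genotype being the sole factor. Fold changes are positive where Axin1 overexpression is higher and understate the change of low genes. P-values are two-sided and Benjamini-Hochberg adjusted over all these genes, a call being an adjusted p under 0.05. Exact permutation of 3 against 3 libraries cannot reach 0.05 and was left out. Python 3.11.15, pandas 2.3.3, numpy 2.4.6 and matplotlib 3.10.9 made tables and plots. Alternatives were other pseudocounts and filters, other scalings, voom on the recovered reads, trend and robust variances, a replicate block, a GC and length correction (GENCODE M21 transcripts) and leaving out each library.

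The 9 genes and all lists were chosen with earlier results of these data known. Named were the 9 genes, Axin1, their relatives, up to 4 called genes of lowest p in each other list, the 3 nearest profiles of each of the 9 and the 2 most abundant markers of each cell type; others complete a count or are said to be named after their values were seen. Ajuba was not found under that symbol. Of the erythroid markers, Hbb-y stood at 402 ± 137 RPKM with Axin1 overexpression and 91.3 ± 12.1 RPKM in wild type and Hbb-b2 at 113 ± 20.3 RPKM with Axin1 overexpression and 36.1 ± 12.5 RPKM in wild type (SD, n = 3 each), and Hba-a1, Hba-a2 and Hbb-b1 are listed at 0 in all libraries. Their sum was 416 to 777 RPKM with Axin1 overexpression and 125 to 169.8 RPKM in wild type.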

Additional observations from a re-analysis of the deposited data

How the results depend on the processing

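Each value was recomputed under 16 alternatives. The Tgfbi call held under all of them. The number of the 9 genes called, 5, was 3 after GC and length correction, 3 with no filter on low values, and 1 to 5 when a library was left out. The number of all genes called, 2846, was 1807 after GC and length correction and 1051 to 2319 when a library was left out, 1051 without Axin1 overexpression replicate 2, 1400 without replicate 3 and 1896 without wild-type replicate 1. The split of 1800 higher and 1046 lower genes was 1248 and 1392 after scaling by the median of ratios, 1117 and 1466 after scaling to a shared upper quartile and 908 and 899 after the correction. With no filter, 3 ligand, receptor and SMAD genes, 1 YAP/TAZ target and 1 relative were called, and with a pseudocount of 10 the first number was 8. Leaving out a library gave 2 to 5 ligand, receptor and SMAD genes, 0 to 2 YAP/TAZ targets, 1 to 4 relatives and 2 to 4 matrix receptors; the cause was not tested, beyond there being fewer libraries. Leaving out a library moved Skil between -0.14 and 0.03 and Smad7 between -0.000425 and 0.14, with the sign turned for Skil without wild-type replicate 2 and for Smad7 without Axin1 overexpression replicate 3, and neither passed.

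Same-numbered libraries of the 2 groups are not stated to share a litter or day. Their deviations from the group means correlated at 0.08, 0.13 and 0.06 for replicates 1, 2 and 3, not over 0.1 for every pair, though each correlated best with its own number. With the replicate number as a block, 2675 genes and 5 of the 9 were called, the log2 fold changes being the same. Of the 9 genes, Thbs1 had the fewest reads in the shallowest library, 373. Its coefficient of variation was 24.2% with Axin1 overexpression, and the part of depth in that spread was not tested.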
